A study of Brachypodium distachyon with 7 samples.

Results

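The genes described here carried H3K4me3 and no listed H3K27me3 in seedlings of the grass Brachypodium distachyon, diploid line ABR1. They were chosen by their presence and values in the deposited tables: loci present in the H3K4me3 tables, absent from the H3K27me3 tables, and free of a value that many genes shared exactly in any H3K4me3 library. The rule kept 7875 genes, which is 67.0% of the 11752 genes in the H3K4me3 tables and 47.9% of the 16434 genes in the tables of either mark. Chromatin immunoprecipitation followed by sequencing gave 1 signal value per gene and library, and 4 H3K4me3 libraries enter this account. V0 seedlings, with 2 libraries, had no cold and were taken 17 days after sowing. V30, with 1 library, had 14 days of warm growth followed by 30 days at 4 °C. V30N, also with 1 library, had 7 days of warmth, a cold period of 30 days at 4 °C and a return to warmth for 7 days. All plants were grown at 24 °C with 16 h light and 8 h dark, and every library came from pooled aerial parts of seedlings. The labels give the groups as matched in developmental stage. Age and the length of growth before cold changed with the treatment, and their effects cannot be told apart. Whether the V0 libraries stem from different plantings is not in the labels, and the p-values reflect only how far those libraries differ, possibly for technical reasons.

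H3K4me3 is trimethylation of lysine 4 on histone H3. In plants, as in animals and yeast, it sits on the first nucleosomes of transcribed genes and is common at genes that are active in most cells. H3K27me3 is laid down by Polycomb repressive complex 2 and covers the bodies of genes held silent in a tissue, among them many developmental regulators. A gene with H3K4me3 and no H3K27me3 is therefore the usual form of an active gene outside Polycomb control. No RNA was measured here. In pooled tissue, fewer cells with the mark and less mark per cell cannot be told apart.

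The edges of the set follow from the tables. Of the 9880 genes with H3K4me3 and no H3K27me3 entry, 79.7% were kept. The other 2005 held a shared value in at least 1 library: 22.31 in V0 library 1 (939 genes), 23.2 in V0 library 2 (61 genes), 22.9 in V30 (834 genes) and 25.4 in V30N (171 genes). Kept genes came as close as 22.309 and 22.316 on either side of the shared value in V0 library 1, and 25.396 and 25.403 in V30N. Shared values were about as common among the 1872 genes with both marks, at 22.6% of genes, as among genes with H3K4me3 alone, at 20.3%. On the other edge, the lowest values listed for H3K27me3 were 27.251 in V0, 23.335 in V30 and 27.923 in V30N. A gene absent from those tables was thus not listed, which does not show that it had no H3K27me3.

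H3K4me3 levels of these genes formed a broad main group and a smaller low group in each of the 4 libraries. The median signal was 46.9 in V0 library 1, 57.1 in V0 library 2, 47.7 in V30 and 55.4 in V30N. The level at the 95th percentile was 6.61 times that at the 5th in V0 library 1, 6.14 times in V0 library 2, 6.55 times in V30 and 5.81 times in V30N. In V0 library 1, 434 genes lay between 10 and 15 units, 322 between 20 and 25, and 822 between 40 and 45. In V30N, 369 genes lay between 15 and 20 units, 274 between 25 and 30, and 765 between 50 and 55. The dip between the groups therefore lay close to the shared values that the rule removed, and the part of that removal in the dip was not tested. The labels do not state whether signal was scaled by gene length, and the order of genes by level may hold gene length as well.

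**Figure D1:**
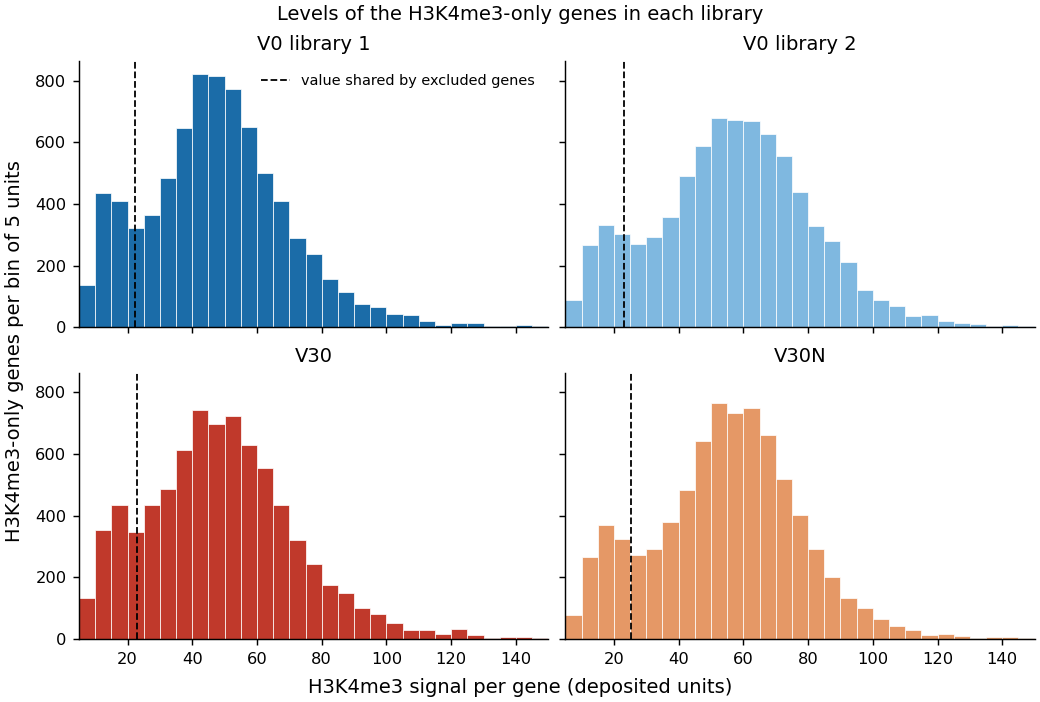
Number of H3K4me3-only genes per bin of 5 units of H3K4me3 signal (horizontal axis, deposited units) in each of the 4 libraries, with the value shared by excluded genes as a dashed line. Each library has a main group around its median and a smaller low group, such as the 434 genes between 10 and 15 units in V0 library 1; values above 150 are not drawn.

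Membership of the lowest 788 genes was shared between libraries more often than membership of the highest 788, although the lowest genes varied most in level, as given further on. The 788 genes with the lowest signal in V0 library 1 shared 601 genes (76.3%) with the lowest 788 in V0 library 2 and 598 (75.9%) with those in V30. At the top, the corresponding counts were 463 (58.8%) and 492 (62.4%). All 4 libraries had 447 genes (56.7%) in common among their lowest 788 and 297 (37.7%) among their highest. V0 library 2 and V30N had the largest overlap at both ends, at 84.1% and 70.3%.

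At the extremes, Bradi1g66677 had 250 and 283 in the V0 libraries, 254 in V30 and 224 in V30N. It was high in all 4. The gene of highest mean level, Bradi2g42360, was not: it had 1031 in V0 library 1 and 1133 in V30, but 88.6 in V0 library 2 and 88.7 in V30N. Its values separated 2 pairs of libraries, and the V0 libraries fell on opposite sides. The lowest genes were Bradi2g12325, with 8.67, 7.16, 9.13 and 7.41 in V0 library 1, V0 library 2, V30 and V30N, and Bradi3g18290, with 8.09, 7.89, 9.37 and 7.77. Bradi1g53960 and Bradi5g26410 varied least, with a range over the 4 libraries of 0.02 each on the centred log2 scale. On that scale each value is log2(signal + 9.41), 9.41 being the 1st percentile of the H3K4me3 values, and each library is set to a median of 0 over the whole table. Bradi5g26410 shows why centring matters: its signals were 56.7, 71.9, 57.5 and 69.6, close to equal once the libraries' medians were aligned.

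The libraries paired in the same way in how often low values repeated exactly, but only in part in their correlations. V0 library 1 and V30 had many exactly repeated low values, with 71.6% and 66.9% of these genes' values below 20 shared with another of them, against 37.8% in V0 library 2 and 36.8% in V30N. As a description over 7875 genes of shared libraries, Pearson's r reached 0.958 for V0 library 2 with V30N and 0.898 for the V0 libraries with each other. V0 library 1 was no closer to V30 than to V30N, at 0.907 and 0.906. On the centred scale, V0 library 1 and V30 both lay above both V0 library 2 and V30N at 2953 genes (37.5%, against 31.6% of all genes). They lay below both at 1222 (15.5%, against 18.3%). Among genes with both marks and no shared value the shares were 38.9% and 13.3%. In 30 genes both V0 library 1 and V30 lay at least 1.5-fold above both V0 library 2 and V30N (against 0.408% of all 11752 genes). In 3 genes they lay at least 1.5-fold below (against 0.0681%). For 3 genes the gap reached 2-fold: Bradi2g42360, Bradi1g37940 (153 and 168 against 18.7 and 16.9) and Bradi1g11740 (35.1 and 43.3 against 13.3 and 14.1), the last named after its values were seen. This split crosses the conditions, with 1 V0 library on each side, and its part in the differences between conditions was not tested. By their exactly repeated low values alone, V30 and V0 library 1 are called here libraries of one kind, and V30N and V0 library 2 of the other. The labels do not give this grouping.

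**Figure D2:**
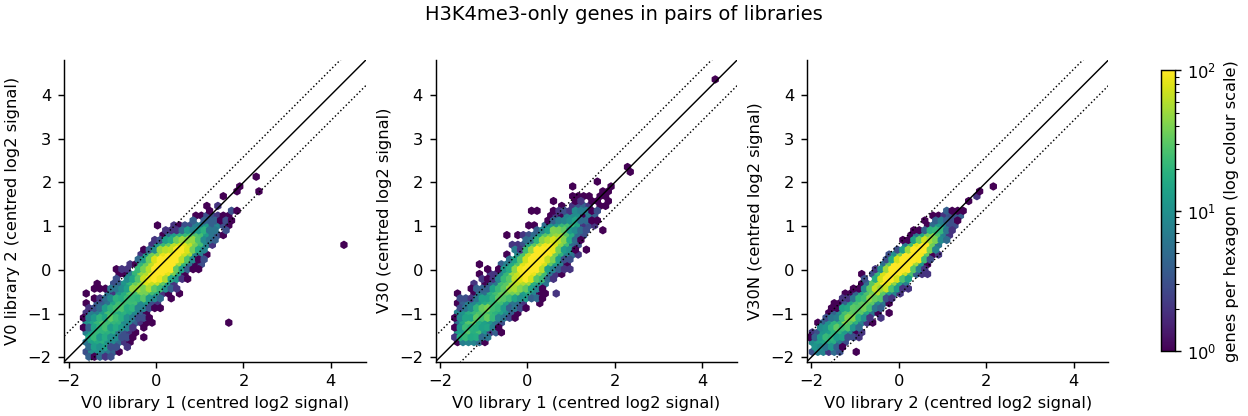
Centred log2 H3K4me3 signal of the 7875 genes in V0 library 2 against V0 library 1, V30 against V0 library 1, and V30N against V0 library 2, with colour for the number of genes per hexagon on a log scale. The solid line marks equal values and the dotted lines 1.5-fold; the cloud of V30N against V0 library 2 is the narrowest, with r = 0.958 against 0.898 between the V0 libraries.

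The end of 30 days of cold was compared with no cold to ask how far H3K4me3 at these genes moved. The median of V30 minus V0 was 0.03 and the median size of the difference 0.16 on the centred log2 scale. Between the V0 libraries themselves the median size was 0.19, but that sets 1 library against 1. V30 minus V0 uses the mean of the 2 V0 libraries, which damps differences, so these sizes are not alike. V30 differed from V0 library 1 by a median size of 0.17 and from V0 library 2 by 0.21. By limma with Benjamini-Hochberg adjustment over all 11752 genes, 0 of the 7875 genes passed an adjusted p of 0.05 (0% of all genes), and the smallest adjusted p was 0.157. At an unadjusted p under 0.05 there were 200, or 2.54%, against 7.32% of all genes. Among the 9323 genes without a shared value, of which the set is the larger part, the share was 2.45%, close to that of the set. The median SE was 0.26, wide beside the median size of 0.16, so 0 calls do not show that levels were unchanged. When limma was instead fitted only to the 9323 genes without a shared value, 14 of the set passed higher and 4 lower. Of all 9323 genes, 0.236% passed in either direction. In that fit a gene's SE took no account of the gap between its own V0 libraries.

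By size, 162 genes were at least 1.5-fold higher in V30 than in V0 (4.21% of all 11752 genes were) and 61 at least 1.5-fold lower (5.45%). Without centring the balance turned to 71 higher and 156 lower, so no direction is read from it. The shares over all genes include genes at shared values, which the rule removed from the set and which made large differences. Over the 9323 genes without one, 2.06% were higher and 0.815% lower, against 2.06% and 0.775% in the set. Set against V0 library 1 only, V30 was higher at 118 genes (against 7.7% of all genes) and lower at 140 (against 6.29%). With V0 library 2 as the only control the counts were 400 (against 5.27% of all genes) and 96 (against 5.83%). For scale, V0 library 2 exceeded V0 library 1 by 1.5-fold at 56 genes (against 7.03% of all genes) and lay below it at 288 (against 3.78%). V30 lay above both V0 libraries at 2990 genes (38.0%, against 36.6% of all genes) and below both at 2223 (28.2%, against 31%), shares near the background. It did so by at least 1.5-fold at 64 genes of the set (against 1.11% of all genes) and at 27 (against 4.06%). A 2-fold difference from V0 was reached by 12 genes upward and 2 downward (against 1.74% of all genes in either direction).

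Leaving aside the 25% of the set with the lowest level, the largest V30 differences on one side of both V0 libraries were of 2 kinds. Bradi2g20070 had 74.7 and 79.8 in V0, 28.0 in V30 and 69.2 in V30N, and Bradi1g77867 had 75.6 and 71.6, 26.96 and 54.3. In both, V30 was the lowest library by a wide margin, and at Bradi1g77867 V30N also lay below both V0 libraries. Their V30 minus V0 differences were -1.09 (SE 0.24, limma adjusted p = 0.166) and -1.07 (SE 0.26, adjusted p = 0.211), and in the fit without shared values the adjusted p was 0.00237 and 0.0026. The largest upward differences were at Bradi2g42360 (1.96, SE 1.21, limma adjusted p = 0.868) and Bradi1g37940 (1.51, SE 0.84, adjusted p = 0.820). Those 2 are the genes that split the libraries by kind: with V0 library 1 as the only control, V30 differed by 0.10 and 0.09. No function is given for these loci, since the files and the reference gene table do not annotate them.

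After 7 days back in warmth, the median of V30N minus V0 was -0.04 and the median size 0.12, against 0.16 for V30 minus V0. The order of V30 and V30N turned with the V0 library taken. From V0 library 2 the median size was 0.11 for V30N and 0.21 for V30, but from V0 library 1 it was 0.18 for V30N and 0.17 for V30. Limma called 0 of the 7875 genes (0% of all 11752 genes), and the smallest adjusted p was 1. At an unadjusted p under 0.05 there were 22, or 0.279%, against 1.03% of all genes and 0.247% of the genes without a shared value. The median SE of 0.26 was wide beside the median size of 0.12. With such an SE, 0 calls do not show that levels were unchanged. The fit without shared values called 1, Bradi1g37940 (0.0107% of those genes). By size, 4 genes of the set (0.051%) were at least 1.5-fold higher and 36 (0.46%) lower, against 0.945% and 1.36% of all genes. Over the 9323 genes without a shared value the shares were 0.043% and 0.45%, close to those of the set. Without centring the counts became 15 and 5. With V0 library 2 as the only control, 10 were higher (against 0.528% of all genes) and 12 lower (against 0.945%). With V0 library 1 the counts were 39 (against 6.81% of all genes) and 247 (against 3.94%). V30N lay above both V0 libraries at 1719 genes (21.8%, against 24% of all genes) and below both at 2762 (35.1%, against 32.6%). It did so by at least 1.5-fold at 1 gene (against 0.017% of all genes) and at 5 genes (against 0.766%). A 2-fold difference was reached by 2 genes, both lower (against 0.391% of all genes in either direction). V30 and V30N were set against the same V0 libraries, so their differences from V0 are not independent.

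The largest V30N differences beyond both V0 libraries were modest. Bradi3g33340 had 87.9 and 89.4 in V0, 86.8 in V30 and 52.1 in V30N. It was low only in V30N, with a difference from V0 of -0.78 (SE 0.24, limma adjusted p = 1). Bradi3g26940 had 50.7 and 74.2 in V0, 78.6 in V30 and 104 in V30N, and differed by 0.57 (SE 0.23, limma adjusted p = 1). Bradi3g29610 had 23.0 and 41.1 in V0, 35.7 in V30 and 55.2 in V30N, and differed by 0.56 (SE 0.29, limma adjusted p = 1). Its V0 libraries were almost as far apart as V30N was from the nearer of them. The largest fall, at Bradi1g37940 (-1.47, SE 0.84, limma adjusted p = 1), was -0.06 with V0 library 2 as the only control.

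The direct comparison of V30N with V30 sets 1 library against 1, so its differences are not damped by a mean over the V0 libraries. V30 and V30N also lie on opposite sides of the split between the 2 kinds of library. That split and the return to warmth cannot be told apart in this comparison, including in the counts that run one way. The median was -0.07 and the median size 0.20, against 0.19 between the V0 libraries and 0.21 between V30 and V0 library 2. Centring was over the whole table, with genes at shared values in it. It left the set's own median at 0.09 in V30 and 0.04 in V30N, an offset that enters this difference. Limma called 0 of the 7875 genes (0% of all genes), with a smallest adjusted p of 0.273. At an unadjusted p under 0.05 there were 236, or 3.00%, against 7% of all genes and 2.92% of the genes without a shared value. With a median SE of 0.30, 0 calls again do not show unchanged levels. The fit without shared values called 22 of the set, all lower in V30N, against 0.279% of all genes in that fit in either direction. By size, 90 genes of the set (1.14%) were at least 1.5-fold higher in V30N and 414 (5.26%) lower, against 5.67% and 5.89% of all genes. Over the 9323 genes without a shared value the shares were 1.10% and 5.27%, close to those of the set. Without centring the counts turned to 456 and 110. With centring over the set the counts were 135 and 310. No direction is read from them. At 2-fold there were 37, all lower (against 2.16% of all genes in either direction). Bradi2g32260 had 52.2 and 67.5 in V0, 23.3 in V30 and 62.7 in V30N, and was low in V30 alone. Its V30N minus V30 difference was 0.91 (SE 0.29, limma adjusted p = 0.466). Bradi2g54127 had 38.3 and 71.7 in V0, 26.8 in V30 and 72.1 in V30N, a difference of 0.94 (SE 0.32, limma adjusted p = 0.494). Downward, Bradi2g42360 (-3.77, SE 1.40, limma adjusted p = 0.561) and Bradi1g37940 (-2.98, SE 0.97, adjusted p = 0.472) came first, the same genes that separated V0 library 1 and V30 from V0 library 2 and V30N.

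Most of the genes that the rule kept held a steady level on the scale used. Over the 4 libraries the range of a gene had a median of 0.36 on the centred log2 scale, with the 5th and 95th percentiles at 0.13 and 0.75. Of the 7875 genes, 6723 (85.4%) stayed within 1.5-fold over all 4 libraries, and 74 (0.940%) spanned 2-fold or more. Over all 11752 genes, 72.3% stayed within 1.5-fold, but these include genes at shared values. The 1448 genes with both marks and no shared value are the nearer comparison, and 83.4% of them stayed within 1.5-fold, with a median range of 0.37. No test was made of that small difference.

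Steadiness depended on level mainly at the low end. The share of genes within 1.5-fold over the 4 libraries was 71.8% among the 788 genes of lowest level, 79.9% in the next step of level, and between 85.4% and 90.5% in the 8 steps above, with the highest value in step 7 of 10. Median signal in V0 library 1 was 13.2 in the lowest step, 54.0 in step 7 and 84.2 in the highest. The median size of V30 minus V0 was 0.18 in the lowest step, 0.15 in step 8 and 0.16 in the highest. For V30N minus V0 it was 0.14, 0.11 and 0.12. The gap between the V0 libraries followed the same course more steeply, from 0.26 in the lowest step to 0.18 in step 9 and 0.20 in the highest. V30N against V0 library 2 fell from 0.14 to 0.10 with no upturn at the top. Some differences ran largely one way at both ends of level. V0 library 2 minus V0 library 1 had a median of -0.18 in the lowest step, -0.06 in step 5 and -0.17 in the highest. For V30N minus V30 the medians were -0.13, -0.02 and -0.20. How far such offsets between libraries account for the course of steadiness with level was not tested. Comparing the lowest 25% of the set in level with the highest 25%, the median size of difference was 1.12 times as large for V30 minus V0, 1.20 times for V30N minus V0 and 1.01 times for V30N minus V30. With a pseudocount of 1 in place of 9.41 these became 1.42, 1.44 and 1.22, so the size of these ratios depended on the pseudocount. Among genes with both marks, 78.7% of those in the lowest step and 88.1% in the highest stayed within 1.5-fold.

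**Figure D3:**
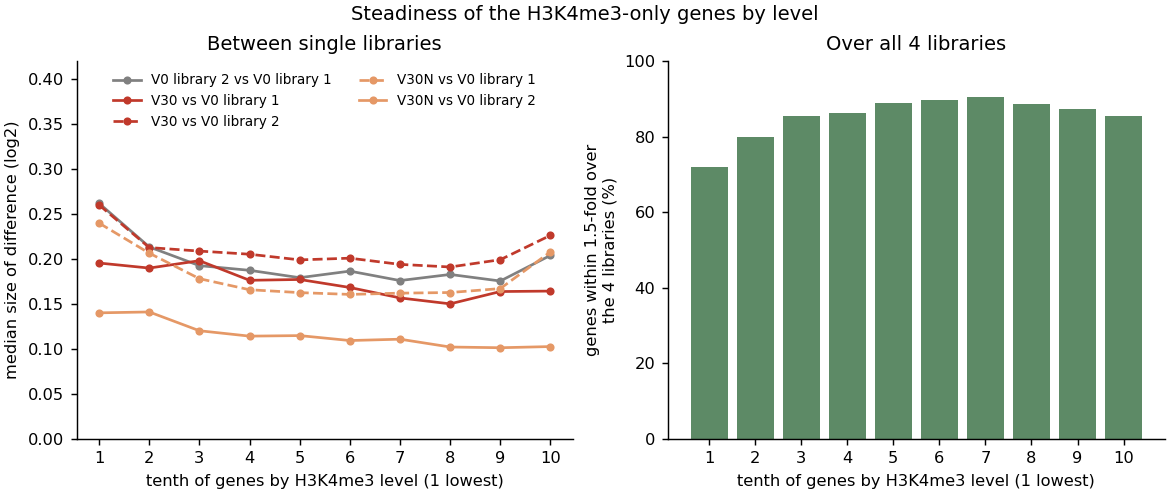
Left, median size of the centred log2 difference between single libraries for the genes in each of 10 steps of mean H3K4me3 level; right, share of genes within 1.5-fold over the 4 libraries in the same steps. V30N against V0 library 2 is lowest throughout, and the share within 1.5-fold is smallest, at 71.8%, in the lowest step.

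Genes with H3K4me3 alone had slightly higher H3K4me3 than genes with both marks. The median difference on the centred log2 scale was 0.06 in each of V0 library 1, V0 library 2 and V30 and 0.07 in V30N. Median signals of the genes with both marks were 44.5, 54.3, 45.5 and 52.2 in V0 library 1, V0 library 2, V30 and V30N. The lower median went with a heavier low end: 15.3% of the genes with both marks fell in the level range of the 788 lowest genes with H3K4me3 alone. The spread of levels was wider as well, with an SD over genes of 0.69 against 0.61 in V0 library 1 and 0.72 against 0.62 in V0 library 2. These are descriptions over genes of the same libraries and carry no test.

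Loci listed from published assignments placed known genes on either side of the rule. Neither the tables nor the reference gene table pairs these identifiers with names, and the lists were chosen with earlier results of these data known. Of 7 loci used as reference genes in expression assays, 6 were in the tables and all 6 belonged to the set. Of 10 light and clock loci, 6 were in the tables, 5 of them in the set and 1, the evening clock gene ELF3, with both marks. Of 7 flowering loci, 0 belonged to the set: VRN1, VRN2L, FT2, FUL2 and SOC1 had both marks and FT1 and CO1 H3K27me3 alone. Of 19 loci in 3 further lists, not named here, 9 belonged to the set and 7 had H3K27me3 alone.

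Reference genes were not uniform in level. GAPDH (Bradi3g14120), which encodes an enzyme of glycolysis, had 96.2 and 106 in V0, 97.9 in V30 and 98.2 in V30N. Its values were high in all 4 libraries, above 97.8% of the set in mean level. The ubiquitin gene UBI4 (Bradi3g04730) had 20.6 and 35.0 in V0, 18.8 in V30 and 28.8 in V30N. It was above 14.4% of the set, and its V0 values spanned those of V30N. Most of the remaining reference loci were low as well. Bradi5g14640, Bradi1g06860 and Bradi1g32860 were above 13.2%, 14.2% and 6.0% of the set, while Bradi4g00660 was above 73.1%. The median level over the 6 was -0.78 on the centred log2 scale. Ranges over the 4 libraries went from 0.24 to 0.55 across the 6 reference loci, and the median over all members of the set was 0.36. Of the 6, 0 passed limma in any of the 3 comparisons.

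Phytochromes sense red and far-red light. Among light and clock genes, the phytochromes PHYB and PHYC ranged less over the libraries than the median member of the set, at 0.36. A further listed phytochrome, PHYA (Bradi1g10520), had no entry for either mark. PHYC (Bradi1g08400) had 69.4 and 80.3 in V0, 66.4 in V30 and 83.6 in V30N, a range of 0.12. PHYB (Bradi1g64360) had 51.2 and 83.3 in V0, 60.3 in V30 and 80.5 in V30N, a range of 0.31. In both, V30 lay near or below the lower V0 value before centring and V30N near the upper one, as in the pairing of the libraries. TOC1 (Bradi3g48880), a clock gene first known from Arabidopsis, had 51.9 and 48.0 in V0, 65.3 in V30 and 59.8 in V30N. V30 lay above both V0 libraries, while V30N did so only before centring and lay between them on the centred scale. Its V30 minus V0 difference was 0.45 (SE 0.26, limma adjusted p = 0.843). Bradi4g36077, a further locus of that list, had 79.6 and 80.2 in V0, 126 in V30 and 92.9 in V30N. V30 was the highest of the 4, with a difference from V0 of 0.71 (SE 0.25, limma adjusted p = 0.470).

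**Figure D4:**
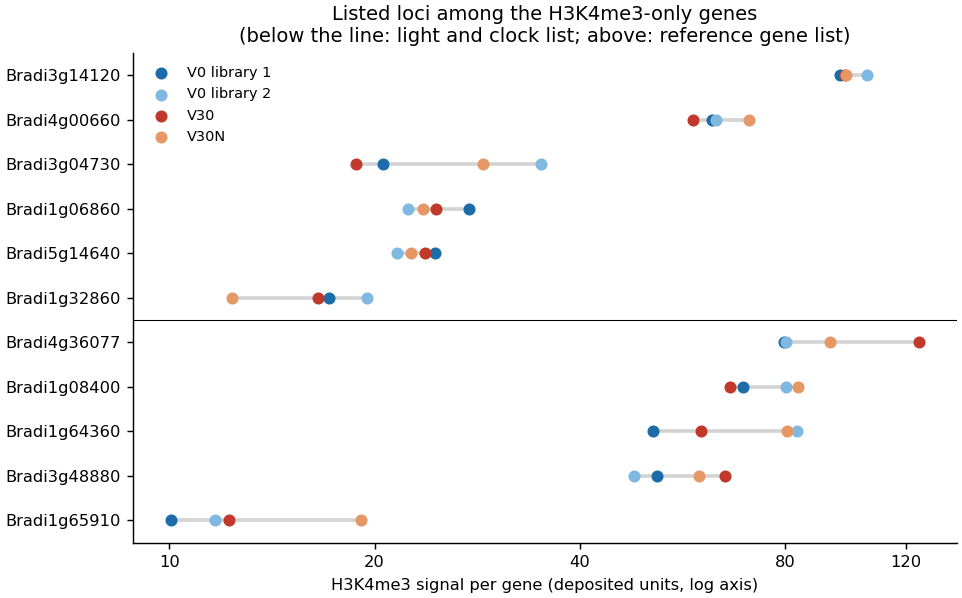
H3K4me3 signal (horizontal axis, deposited units, log axis) of the 6 reference loci and 5 light and clock loci in the set, with 1 point per library and a grey bar over their range. Bradi3g14120 has the highest level of the reference loci, and Bradi4g36077 has its highest value, 126, in V30.

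The set was spread over all 5 chromosomes in nearly equal shares. Chromosome and order were read from the locus identifiers, in which the number after the letter g rises along the chromosome. Chromosome 1 held 2360 of the genes, chromosome 2 1795, chromosome 3 1858, chromosome 4 1148 and chromosome 5 714. As a share of the genes in either table this was 48.0%, 48.3%, 49.96%, 44.0% and 48.5%. Chromosome 4 was lowest, with a 95% Wilson interval of 42.1% to 45.9% that covers counting error only. Within the H3K4me3 tables the share was 66.8% on chromosome 4 and between 66.1% and 68.4% on the others, so chromosome 4 stood apart through its genes with H3K27me3 alone, at 34.2% against at most 27.9% elsewhere.

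Along the chromosomes, shares were compared over 10 equal stretches of locus numbers. The lowest was the third stretch of chromosome 4, where 56 of 229 genes (24.5%, 95% Wilson interval 19.3% to 30.4%) belonged to the set and 137 (59.8%) had H3K27me3 alone. The next lowest was the first stretch of the same chromosome, at 39.6%. The highest was the fifth stretch of chromosome 2, with 135 of 215 genes (62.8%, interval 56.2% to 69.0%). With 3 stretches per chromosome in place of 10, the shares ran only from 39.9% to 52.8%. Both extremes of the share mirror the genes with H3K27me3 alone, as the share of one lowers that of the other.

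**Figure D5:**
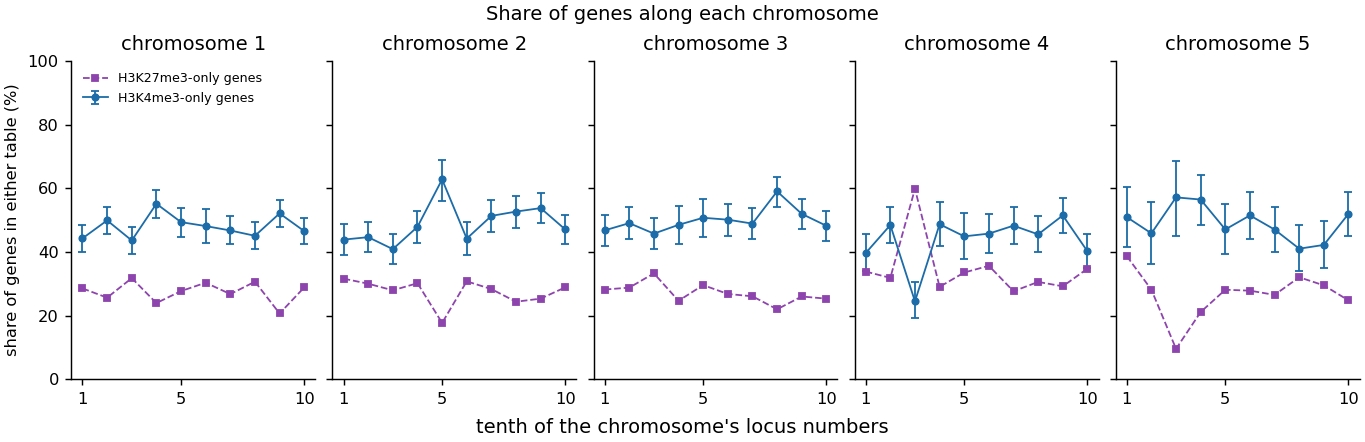
Share of the genes in either table that belong to the set (blue, with 95% Wilson intervals that cover counting error only) and that have H3K27me3 alone (purple), in 10 stretches of locus numbers on each chromosome. Shares lie between 39.6% and 59.0%, apart from the third stretch of chromosome 4 at 24.5% and the fifth stretch of chromosome 2 at 62.8%.

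Levels were slightly lower near the middle of the chromosomes. In the fifth and sixth stretches together, chosen after the values were seen, 1348 genes of the set had a median level of 0.0035 on the centred log2 scale. The first and last stretches had 0.10 over 1645 genes and the other stretches 0.08 over 4882. Median signals in the middle were 44.6, 53.1, 45.1 and 52.5 in V0 library 1, V0 library 2, V30 and V30N, against 47.7, 59.1, 48.1 and 56.3 at the ends. They were lower in 4 of 4 libraries, but the stretches were chosen from these same values. The order over libraries and chromosomes is therefore a description and tests nothing. The middle was also below the ends on each of the 5 chromosomes, with the narrowest gap on chromosome 1, 0.06 against 0.11, and the widest on chromosomes 2 and 5, 0.0071 against 0.14 and -0.02 against 0.12. It did not always hold the lowest stretch: on chromosome 5 stretches 2 and 3, at -0.07 and -0.08, lay below the fifth and sixth, and on chromosome 1 the seventh was lowest, at 0.03. The 788 genes of highest level made up 7.86% of the set in the middle and 11.4% at the ends. Steadiness did not follow this course, with 85.8% within 1.5-fold in the middle and 85.9% at the ends.

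Along the order of tabled genes, the set formed 3315 runs with no other tabled gene between, and 82.1% of its genes had another member next to them. Members are 47.9% of the tabled genes, so most would have a member on at least 1 side in a random order too. Whether they cluster beyond that was not tested. The longest run held 18 genes on chromosome 1, from Bradi1g24060 to Bradi1g24297. Levels within it ran from -1.51 at Bradi1g24190 (10.2 and 15.6 in V0, 9.12 in V30, 11.2 in V30N) to 0.81 at Bradi1g24100 (86.7 and 106 in V0, 92.0 in V30, 90.01 in V30N), against -1.73 to 2.50 over the whole set. Of the 18 genes, 16 stayed within 1.5-fold over the 4 libraries. Bradi1g24287 had 25.3 and 24.4 in V0, 44.2 in V30 and 26.5 in V30N, the widest range in the run at 0.94.

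Neighbours in the set hardly resembled each other in level. Over 7870 pairs of consecutive members, Pearson's r of level was 0.04 and Spearman's rho 0.03. Pairs whose numbers differed by 10, the usual step between adjacent loci, had r = 0.06 and rho = 0.08 over 2234 pairs. V30 minus V0 differences correlated at 0.03 in those adjacent pairs, and differences between the V0 libraries at 0.06. These weak correlations share libraries and are given as descriptions.

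The mark of the flanking genes went with level to a small degree. The 301 members whose nearest tabled genes on both sides had H3K27me3 alone had median signals of 43.0, 49.7, 43.6 and 50.3 in V0 library 1, V0 library 2, V30 and V30N. The 4112 members flanked on both sides by genes with H3K4me3 alone had 47.6, 58.2, 48.6 and 56.4, higher in 4 of 4 libraries. Median levels were -0.06 and 0.09 on the centred log2 scale. The lowest 25% of the set in level held 34.9% of the former and 23.5% of the latter. Within 1.5-fold over the 4 libraries were 82.4% and 86.0%. The spacing of these genes on the chromosome is not given by locus numbers and was not tested.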

How the data were processed

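H3K4me3 (4 libraries) and H3K27me3 (3 libraries) chromatin immunoprecipitation from pooled aerial seedling parts was analysed from 1 table per library, deposited by the authors as a signal value per gene. Per the submitters' processing notes, reads were aligned with Bowtie2 2.1.0. Genome build, region calling, input correction, normalization and depth are not given in the sources used here; lacking depth, no counting interval of the signal was computed. Of 16434 locus identifiers, 0 matched the RefSeq gene table. Fill values were the most frequent value of each library. Values were taken as log2(signal + 9.41), which understates changes of low genes, and centred on each library's median. Limma 3.58.1 (R 4.3.3, eBayes with variance trend) was fitted to all 4 libraries and 11752 genes, 1 coefficient per condition. The single V30 and V30N libraries were taken to vary like the V0 pair. The code was also run on simulated data with 1 spread for all genes and no shared values. Those data differ from the real libraries, and nothing about the calls is drawn from them. Genes were also counted at 1.5-fold. Named genes were the 2 highest, lowest and steadiest, the 2 largest differences per direction and comparison, the longest run (in part) and listed loci. Members and lists were chosen with earlier results of these data known. Alternatives covered pseudocount, scaling, a low-level filter, the variance trend, genes fitted, size threshold and V0 libraries. Python 3.11.15, numpy 2.4.6, pandas 2.3.3, scipy 1.17.1 and matplotlib 3.10.9 were used.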

Additional observations from a re-analysis of the deposited data

Results flagged for a closer look

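At 2 of the genes named with a difference, V30 lay on one side of both V0 libraries and V30N on the other. For Bradi1g37940 the V30N minus V30 difference was -2.98 on the centred log2 scale, and limma's test of that difference over all genes gave an adjusted p of 0.472, or 1.26e-25 in the fit without shared values. Its V0 libraries were themselves at 153 and 18.7. For Bradi2g54127 the difference was 0.94, with limma adjusted p values of 0.494 and 0.0905 in those fits, and its V0 libraries were at 38.3 and 71.7.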

How the results depend on the processing

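Limma called 0 genes of the set in each of the 3 comparisons with either other pseudocount, with centring over the set, quantile normalization, the low-level filter or no variance trend. Without centring it called 6 for V30 minus V0, 1 for V30N minus V0 and 2 for V30N minus V30, and over genes without shared values 18, 1 and 22. Centring moved every V30 minus V0 difference by 0.12. The counts past 1.5-fold were 223, 40 and 504 in the same order. They became 509, 121 and 925 with a pseudocount of 1, 130, 15 and 332 with the 5th percentile (15.0), and 14, 2 and 37 at 2-fold. For V30N minus V0 the count was 20 without centring and 25 under the low-level filter. Leaving out 1 V0 library gave 258 to 496 for V30 and 22 to 286 for V30N. The median size of V30 minus V0 was 0.20 with a pseudocount of 1 and 0.17 to 0.21 without 1 V0 library, and for V30N minus V0 the latter gave 0.11 to 0.18. The ratio of the lowest to the highest 25% in level, 1.12 for V30 minus V0, was 1.42 with a pseudocount of 1, 1.02 with the 5th percentile, 1.22 without centring, 1.30 with quantile normalization, 1.07 under the filter, 1.25 with level from other libraries and 1.11 to 1.18 without 1 V0 library. For V30N minus V0, 1.20 became 1.44 with a pseudocount of 1 and 0.966 under the filter, below 1. For V30N minus V30, 1.01 became 1.22, 1.31 and 1.28 with a pseudocount of 1, no centring and quantile normalization. The level difference to genes with both marks, 0.07, was 0.077 and 0.062 with a pseudocount of 1 and of the 5th percentile, and 0.066 to 0.067 without 1 V0 library. With shared values kept, genes with H3K4me3 alone were 84.2%, 84.9%, 84.6%, 82.8% and 82.4% of the H3K4me3 tables on chromosomes 1 to 5. The cause of these shifts was not tested. No paired analysis was possible because V30 and V30N had 1 library each.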

Other observations

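The 2005 genes left out for a shared value were above it in the other libraries by median. The 939 with 22.31 in V0 library 1 had median signals of 55.9 in V0 library 2, 44.7 in V30 and 53.8 in V30N, and the 834 with 22.9 in V30 had 39.8 and 51.5 in the V0 libraries and 50.3 in V30N. The 61 genes with 23.2 in V0 library 2 had 38.1 in V0 library 1, 40.8 in V30 and 41.0 in V30N, and the 171 with 25.4 in V30N had 38.3 in V0 library 1, 43.2 in V0 library 2 and 42.9 in V30. These last 2 groups lay below the medians of the kept genes, which were 46.9, 57.1, 47.7 and 55.4 in V0 library 1, V0 library 2, V30 and V30N.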
